A study of Mus musculus with 10 samples.

Results

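The 10 genes that encode the pore-forming subunits of voltage-gated calcium channels were followed in mouse neurons treated with SP600125, which blocks JNK, the kinases that phosphorylate the transcription factor JUN, or with DMSO, in which the drug is dissolved. The members were the named genes Cacna1a, Cacna1b, Cacna1c, Cacna1d, Cacna1e, Cacna1f, Cacna1g, Cacna1h, Cacna1i and Cacna1s. All 10 were measured, among 19938 genes tested, and each had 1 probe set (a group of array probes read as 1 value) that carried its symbol alone. The cells of both groups were terminally differentiated neurons of a 129Sv-C57Bl/6 strain background, cultured in complete medium. SP600125 was given at 25 µM in 3 applications 2 hours apart, and DMSO was given on the same schedule. Each group held 5 biological replicates, a to e, with 1 array each. Replicates a and b of both groups carry the label of SP600125 batch 1, and the other 3 (c, d and e) that of batch 2. Separate cultures are not described for the replicates, so p-values here reflect only the scatter among these arrays, part or all of which could be technical. The way the neurons were derived is not given in the sources used here, and they carried no engineered allele that the labels name.

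Voltage-gated calcium channels open when the membrane depolarises and let calcium into the cell, where it triggers transmitter release, shapes firing and drives gene expression. The large pore-forming subunit carries the pore, the voltage sensor and the binding sites of channel drugs, and it defines 3 families. Cav1 channels carry the long-lasting L-type current, Cav2 channels the P/Q-, N- and R-type currents of nerve terminals and dendrites, and Cav3 channels the low-threshold T-type current. Cav1 and Cav2 pores assemble with auxiliary beta and alpha2delta subunits, while Cav3 pores can work without them.

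After SP600125, 6 of the 10 subunit genes fell, 1 rose and 3 did not pass the test. All 3 Cav2 genes fell, led by Cacna1a, which dropped to 68.0% of its DMSO level. The T-type genes Cacna1g and Cacna1h and the L-type gene Cacna1c fell with them. Cacna1s, the pore of the skeletal muscle L-type channel, read higher by 0.32 on the log2 scale, while Cacna1d, the other neuronal L-type gene, had a change of 0.04. The test was limma with a term for drug batch, and a gene was called when its p, adjusted by Benjamini-Hochberg over all genes, was under 0.05. By the same rule 29.9% of all genes fell and 17.0% rose, so falls were common on these arrays, and more so among genes at the level of most members. The median change of the 10 members was −0.29, beside −0.03 for all genes. On 5 members (Cacna1a, Cacna1b, Cacna1c, Cacna1g and Cacna1h) every SP600125 array lay below every DMSO array, as it did for 16.4% of all genes. For Cacna1s every SP600125 array lay above, as for 6.65% of all genes.

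**Figure D1:**
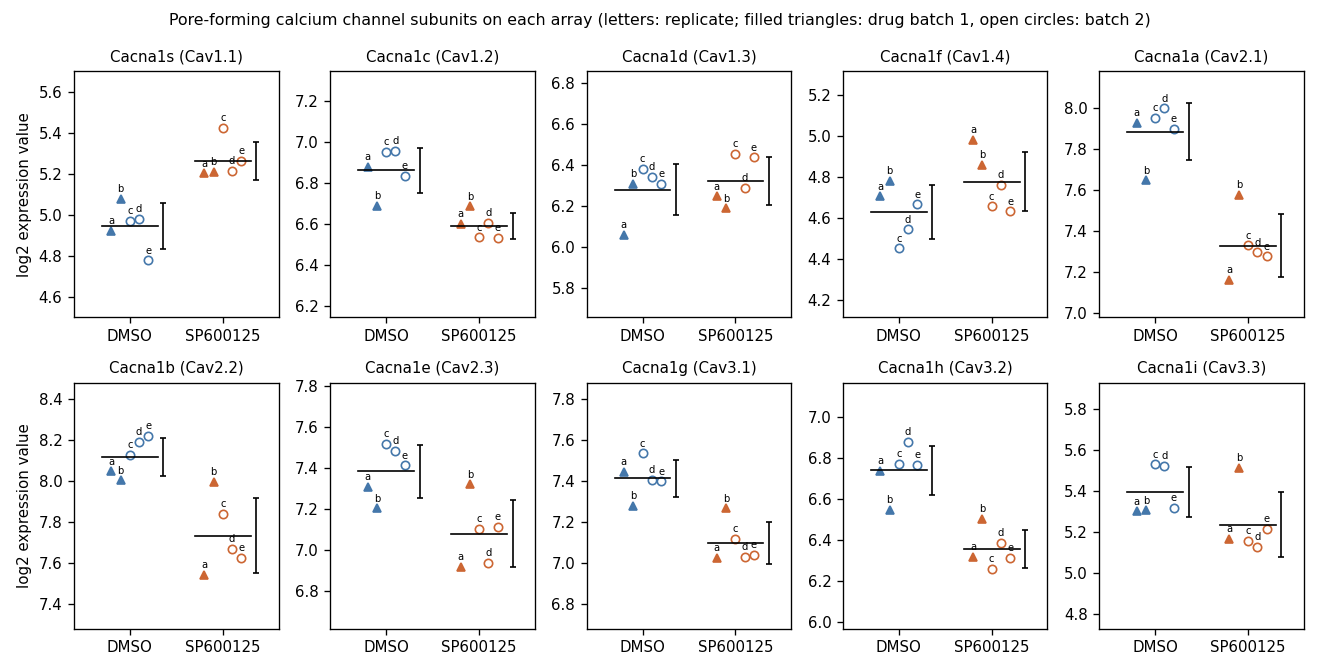
Log2 expression value (vertical axis, the same span of 1.2 in each panel) of the 10 subunit genes on the 5 DMSO and 5 SP600125 arrays, with lines for group means and bars for 1 SD. Cacna1a shows the largest difference of group means, the b arrays of both groups lie close together for most genes, and the groups overlap for Cacna1d.

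The arrays gave log2 values between 1.90 and 13.83, and no pair of arrays was identical (highest correlation 0.993). All 14 pan-neuronal markers examined read above 5.43, the 95th percentile of the mean levels of 1015 olfactory receptor genes, which are largely silent outside the nose and serve here as a guide to background. Of the astrocyte markers 9 of 10 and of the fibroblast and endothelial markers 8 of 10 also did. So did 6 of 9 oligodendrocyte, 3 of 10 cardiac and smooth muscle and 5 of 8 pluripotent and progenitor markers. In this last list the pluripotency genes Pou5f1 (4.27), Zfp42 (3.92) and Nanog (5.33) read below 5.43, and Dppa5a (6.30) above it. These genes were noted after their values were seen. The spread of gene values on an array was narrower after SP600125, with an SD from 1.63 to 1.71 against 1.76 to 1.84 after DMSO. Change also depended on level across all genes. Among genes with a mean between 7 and 8, 60.6% fell and the median change was −0.22, and between 6 and 7, 41.1% fell with a median of −0.14. Between 5 and 6, 27.6% rose and the median was 0.08, and between 4 and 5, 36.2% rose with a median of 0.15. Cacna1a, Cacna1b, Cacna1e and Cacna1g lie in the first of these bands, Cacna1c, Cacna1d and Cacna1h in the second, Cacna1s and Cacna1i in the third and Cacna1f in the fourth. The direction of most members is thus also the commoner one among genes of like level. In bulk RNA, fewer cells of a type and less transcript per cell cannot be told apart.

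The DNA just upstream of the genes was read from RefSeq for build GRCm38.p6, where windows of 300 bases around a transcript start were held for 7 of the 10 members, 10 windows in all. Cacna1a, Cacna1g and Cacna1h had no entry. The 200 bases at the upstream end are shown for Cacna1b as a gene that fell, Cacna1d as a gene with no call and Cacna1s as the gene that rose, each 5′ to 3′ on the gene's own strand and outside the annotated gene. They lie at chr2:24763203-24763402 (minus strand), chr14:30491207-30491406 (minus strand) and chr1:136052561-136052760 (plus strand). Each window ends 50 bases after the start, so the stretches shown stop short of the start. Capitals mark the pentamer CCAAT on either strand (the core bound by NF-Y) and TATAAA on either strand (the letters of the TATA box). They mark matching letters only, wherever these lie.
Cacna1b: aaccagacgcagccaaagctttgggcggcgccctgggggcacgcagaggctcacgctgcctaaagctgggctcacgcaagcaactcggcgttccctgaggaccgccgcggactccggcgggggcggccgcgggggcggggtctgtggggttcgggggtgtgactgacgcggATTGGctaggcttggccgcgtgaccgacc
Cacna1d: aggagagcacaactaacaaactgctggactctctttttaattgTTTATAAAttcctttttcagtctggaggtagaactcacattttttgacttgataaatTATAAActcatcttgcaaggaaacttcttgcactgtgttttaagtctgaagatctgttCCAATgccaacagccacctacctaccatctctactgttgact
Cacna1s: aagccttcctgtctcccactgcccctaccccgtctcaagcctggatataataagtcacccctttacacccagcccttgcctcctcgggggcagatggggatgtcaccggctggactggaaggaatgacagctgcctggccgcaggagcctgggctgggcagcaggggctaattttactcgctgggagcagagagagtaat

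The 3 stretches differ in composition. Over the full window G and C made up 72.3% of the bases for Cacna1b, 40.3% for this window of Cacna1d and 63.0% for Cacna1s, beside a median of 52.7% over 32851 mouse windows. The Cacna1b window held 35 CpG dinucleotides and the Cacna1s window 9, with a median of 7 over all. A second RefSeq start of Cacna1d, inside the gene, was richer still, with 87.3% G and C and 63 CpG. CCAAT was found in 4 of the 10 member windows and in 37.4% of all windows, and TATAAA in 1 of 10 and 13.6%. The CRE octamer TGACGTCA and the AP-1 heptamer TGACTCA, sequence targets of the JUN and ATF factors, were in none of the 10, and in 1.79% and 5.20% of all windows. All motifs were searched on both strands, and no match says only that the letters are not in these windows.

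The Cav2 genes encode the channels that admit calcium at nerve terminals. Cacna1a encodes the P/Q-type pore, the main trigger of fast transmitter release at many central synapses. On DMSO arrays a to e Cacna1a read 7.93, 7.65, 7.95, 7.997 and 7.90 on the log2 scale, and on SP600125 arrays a to e 7.16, 7.57, 7.33, 7.29 and 7.28. The groups did not overlap, but array b was the lowest of its group after DMSO and the highest after SP600125, only 0.07 apart. Cacna1a fell by 0.56 (SE 0.09, 95% confidence interval −0.74 to −0.37, n = 5 per group), with a limma adjusted p of 0.000358. Of all genes, 1.83% had a more negative change.

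Cacna1b encodes the N-type pore, which also serves transmitter release and is the target of omega-conotoxin pain drugs. Its DMSO arrays read 8.05, 8.003, 8.13, 8.19 and 8.22 (a to e) and its SP600125 arrays 7.54, 7.995, 7.84, 7.67 and 7.62. SP600125 replicate b stood well above the other drug arrays and 0.007 below the lowest DMSO array. Cacna1b fell by 0.38 (SE 0.08, limma adjusted p = 0.00289). Cacna1e encodes the R-type pore, found in dendrites and terminals. Cacna1e read 7.31, 7.20, 7.52, 7.48 and 7.41 after DMSO and 6.92, 7.32, 7.10, 6.93 and 7.11 after SP600125. Here SP600125 replicate b lay above 2 of the DMSO arrays, so the groups overlapped. The fall of Cacna1e was 0.31 (SE 0.08, limma adjusted p = 0.00972), and 8.57% of all genes had a more negative change than Cacna1b and 14.8% than Cacna1e.

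In the L-type family the calls differed between members. Cacna1c encodes Cav1.2, the main L-type pore of brain, heart and smooth muscle, which couples depolarisation to gene expression in neurons. Its DMSO arrays read 6.88, 6.69, 6.95, 6.96 and 6.83 and its SP600125 arrays 6.60, 6.69, 6.53, 6.61 and 6.53. The b arrays differed by 0.002, and the other drug arrays lay below every DMSO array. Cacna1c fell by 0.27 (SE 0.07, limma adjusted p = 0.00534).

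Cacna1d encodes Cav1.3, an L-type pore that opens at more negative voltages and supports pacemaking. It read 6.06, 6.31, 6.38, 6.34 and 6.31 after DMSO and 6.25, 6.19, 6.46, 6.29 and 6.44 after SP600125. The groups overlapped throughout, and SP600125 was higher at 3 of the 5 replicate letters and lower at 2. The change was 0.04 (SE 0.06, 95% confidence interval −0.09 to 0.18, limma adjusted p = 0.596). That interval excludes the falls estimated for the 6 genes that passed, but leaves out the error of those estimates. In the direct tests of Cacna1d against each of them, given below, no pair passed after adjustment (exact permutation, adjusted p = 0.0583). The gene was well above background, at 6.28 ± 0.13 after DMSO and 6.32 ± 0.12 after SP600125 (mean ± SD, n = 5).

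Cacna1s and Cacna1f encode the L-type pores of skeletal muscle and of photoreceptor terminals. Both read below the 95th percentile of olfactory receptor levels, a level at which signal and background cannot be told apart. Cacna1s read 4.92, 5.08, 4.97, 4.98 and 4.78 after DMSO and 5.20, 5.21, 5.42, 5.22 and 5.26 after SP600125, with no overlap. It rose by 0.32 (SE 0.07, limma adjusted p = 0.00299), and did not pass after quantile normalization (0.18, adjusted p = 0.0648) or cyclic loess (0.18, adjusted p = 0.0648). Cacna1f read 4.71, 4.78, 4.45, 4.54 and 4.67 after DMSO and 4.98, 4.86, 4.66, 4.76 and 4.63 after SP600125, with overlapping groups. Its change was 0.15 (SE 0.06, limma adjusted p = 0.0652). The markers of the same tissues gave these counts. Of 9 photoreceptor markers, none of which exceeded the olfactory percentile, 5 rose and none fell. Of 10 skeletal muscle markers, 4 above that percentile, 2 rose and none fell. Of all genes 17.0% rose and 29.9% fell. With a mean between 4 and 5, 36.2% rose and 3.22% fell, and between 5 and 6, 27.6% rose and 13.8% fell. The counts thus cannot be read as particular to these markers. The mean level of the photoreceptor markers ran from 4.13 to 4.35 on DMSO arrays and from 4.29 to 4.51 on SP600125 arrays, and that of the skeletal muscle markers from 5.12 to 5.28 and from 5.17 to 5.52. After quantile normalization and after cyclic loess none of these markers passed. The 1015 olfactory receptor genes had a median change of 0.23 in the values as deposited. The part of this shift among dim genes in the rise of Cacna1s was not tested.

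The T-type genes encode pores that open near the resting potential and support burst firing. Cacna1h, the Cav3.2 pore, read 6.74, 6.55, 6.77, 6.88 and 6.77 after DMSO. On the SP600125 arrays it read 6.32, 6.50, 6.26, 6.39 and 6.31, all below every DMSO array. Cacna1h fell by 0.38 (SE 0.07, limma adjusted p = 0.0011), to 76.6% of the DMSO level. Cacna1g, the Cav3.1 pore that is prominent in thalamic relay neurons, read 7.44, 7.28, 7.53, 7.41 and 7.40 after DMSO and 7.03, 7.27, 7.12, 7.03 and 7.04 after SP600125. The b arrays again lay close together, 0.01 apart, and no arrays overlapped. Cacna1g fell by 0.32 (SE 0.07, limma adjusted p = 0.00269).

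Cacna1i, the Cav3.3 pore, read close to background, at 5.30, 5.31, 5.53, 5.52 and 5.32 after DMSO and 5.17, 5.51, 5.16, 5.13 and 5.22 after SP600125. Of the drug arrays 4 lay below all DMSO arrays, and SP600125 replicate b lay among the highest DMSO values. The change was −0.16 (SE 0.08, limma adjusted p = 0.131) and did not pass. Without SP600125 replicate b it was −0.24 and passed (adjusted p = 0.00931), and it also passed after cyclic loess (−0.27, adjusted p = 0.0217), quantile normalization (−0.29, adjusted p = 0.0186) and array median centring (−0.26, adjusted p = 0.0148).

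**Figure D2:**
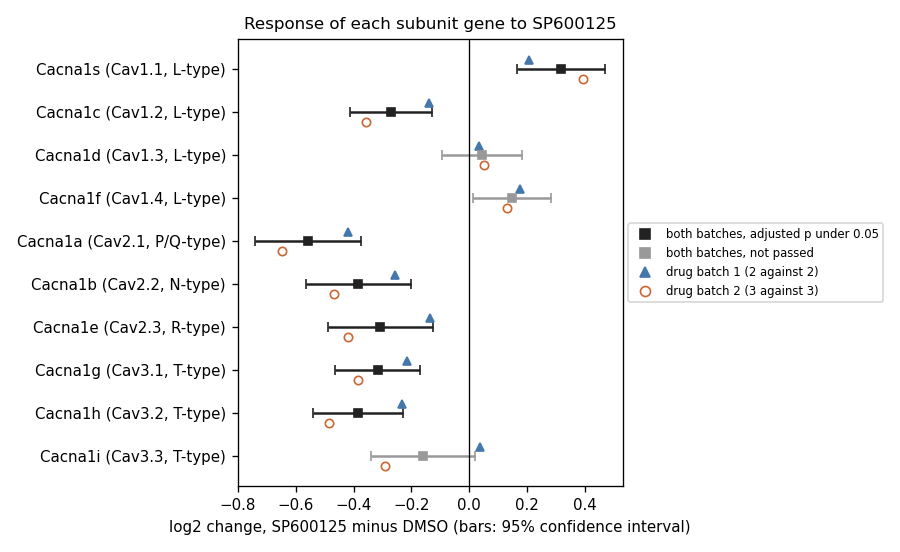
Log2 change of each subunit gene, SP600125 minus DMSO (horizontal axis), with the 95% confidence interval of the fit over both drug batches and the change within each batch. Of the 6 genes that fell, each has a larger fall in batch 2 than in batch 1, and Cacna1d lies near 0 in both.

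Whether subunits responded by different amounts was examined on the 7 members above background. The difference of each pair of genes was taken on every array. This removes any shift common to the whole array, but not one that depends on level. An exact two-sided permutation test rearranged the treatment within drug batches (120 arrangements, smallest possible p 0.0167), and 21 pairs were compared. In 12 pairs the unadjusted p was under 0.05, and in none after Benjamini-Hochberg adjustment over the 21 pairs, where the smallest value was 0.0583. The share of such pairs among other genes of like level was not computed, so the 12 cannot be read as particular to the subunits. All 6 pairs with Cacna1a and all 6 with Cacna1d were among the 12, and Cacna1c against Cacna1h was the only one of the other 10. The change of Cacna1c minus that of Cacna1a was 0.29, and the change of Cacna1a minus that of Cacna1e was −0.25 (both exact permutation p = 0.0167, adjusted 0.0583). The change of Cacna1d exceeded that of Cacna1c by 0.31 (exact permutation p = 0.0333, adjusted 0.0583). Cacna1e and Cacna1g differed by 0.01 (exact permutation p = 0.85) and Cacna1b and Cacna1h by 0.0005 (exact permutation p = 1).

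The responses were estimated within each drug batch. The 6 genes that fell had changes from −0.14 to −0.42 in batch 1 (2 arrays against 2) and from −0.36 to −0.65 in batch 2 (3 against 3). In batch 1 alone limma called none of the members at the adjusted threshold, and only 1 of all 19938 genes. Of the members 1, Cacna1a, had an unadjusted p under 0.05 there, beside 24.6% of all genes. In batch 2 alone 7 members fell and 1 rose, beside 27.3% and 11.1% of all genes. The difference of the response between batches was not called for any member by limma, with 1 member, Cacna1i, at an unadjusted p under 0.05 (−0.33 in batch 2 relative to batch 1, SE 0.15, adjusted p = 0.537 by limma). By limma 0% of all genes were called for this difference, and 1852 (9.29%) had an unadjusted p under 0.05. Apart from treatment, batches 1 and 2 differed for none of the members after adjustment, against 0.722% of all genes. At an unadjusted p under 0.05 there were 2, Cacna1d (0.17 higher in batch 2) and Cacna1f (0.21 lower in batch 2 than in batch 1), a share near the 13.9% of all genes at that p.

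The b arrays held the smallest differences for most members. For replicate letter b, SP600125 minus DMSO was −0.07 for Cacna1a, −0.007 for Cacna1b, −0.04 for Cacna1h and −0.01 for Cacna1g, whereas for letter a it was −0.77, −0.51, −0.42 and −0.42. At that letter the SP600125 array exceeded the DMSO array for Cacna1e and Cacna1i, by 0.12 and 0.21. The pan-neuronal markers moved with them. Their mean over 14 genes was 9.39, 9.04, 9.38, 9.39 and 9.40 on DMSO arrays a to e and 8.67, 9.24, 8.81, 8.71 and 8.78 on the SP600125 arrays, so DMSO replicate b lay below SP600125 replicate b. Of these markers 13 fell and none rose, beside 29.9% and 17.0% of all genes. Their median change was −0.50, and 1, Map2 (noted after its value was seen), did not pass. Most of them had a mean between 7 and 10. Of all genes at 7 to 8, 8 to 9 and 9 to 10, 60.6%, 66.3% and 64.4% fell. The astrocyte marker mean overlapped between the groups (8.53 to 8.59 after DMSO and 8.50 to 8.59 after SP600125). The means of the cardiac and smooth muscle markers (5.38 to 5.59 and 5.45 to 5.55) and of the pluripotent and progenitor markers (6.21 to 6.43 and 6.23 to 6.38) also overlapped. The oligodendrocyte marker mean was lower on every SP600125 array than on any DMSO array (6.90 to 6.99 after DMSO and 6.79 to 6.88 after SP600125). The fibroblast and endothelial marker mean did not overlap either (7.97 to 8.08 and 7.75 to 7.87). Of its 10 genes 4 fell, none rose and 6 did not pass. The largest falls were of collagen genes, noted after their values were seen (Col1a1 −0.69, Col1a2 −0.61 and Col3a1 −0.43). The mean of this list thus does not stand for all its genes. Of the astrocyte markers 4 fell and 2 rose, and of 9 oligodendrocyte markers 4 fell and none rose. Of 10 cardiac and smooth muscle markers 2 fell and 4 rose, and of 8 pluripotent and progenitor markers 1 fell and 2 rose. These counts too stand beside 29.9% and 17.0% of all genes, and were not set against genes of like level. The part of the neuronal or other cell content in the falls of the subunit genes was not tested. With both b arrays left out, 7 members fell and 1 rose, beside 31.6% and 17.1% of all genes, and the change of Cacna1a was −0.68.

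**Figure D3:**
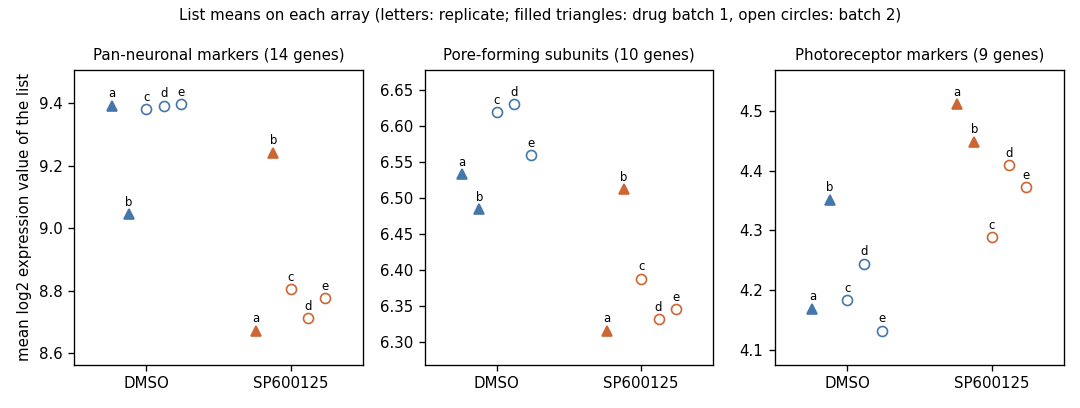
Mean log2 expression value on each array (vertical axis, a separate scale per panel) of 14 pan-neuronal markers, the 10 subunit genes and 9 photoreceptor markers. The b arrays lie between the groups for the neuronal markers and the subunits, and the ranges of the photoreceptor mean overlap.

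The scaling of the arrays changed which falls passed. Cacna1a and Cacna1h fell as deposited and after each of 4 other scalings, with changes of −0.37 (limma adjusted p = 0.00256) and −0.30 (limma adjusted p = 0.00455) after cyclic loess, a scaling that evens out differences between arrays that depend on level. Cacna1b (−0.19, adjusted p = 0.0537), Cacna1c (−0.16, adjusted p = 0.0543), Cacna1g (−0.15, adjusted p = 0.0615) and Cacna1e (−0.14, adjusted p = 0.142) stayed below 0 but did not pass after cyclic loess, where 17.7% of all genes fell. Cacna1e also did not pass after quantile normalization (−0.19, adjusted p = 0.0772). Cacna1d passed under none of the 5 scalings and was slightly negative after array median centring (−0.06).

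**Figure D4:**
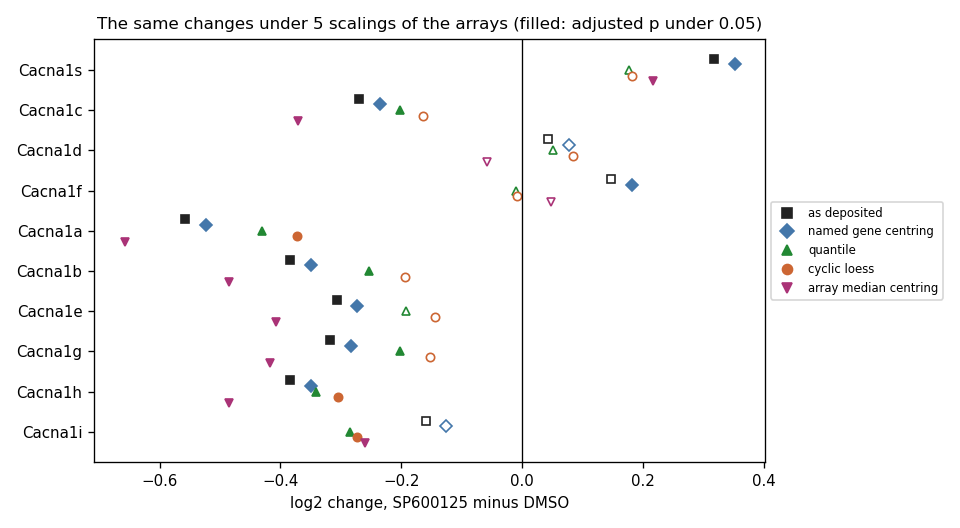
Log2 change of each subunit gene (horizontal axis) with the values as deposited and after 4 other scalings of the arrays, filled where the limma adjusted p is under 0.05. Cacna1a and Cacna1h are filled under all 5, and the symbols of the dim genes Cacna1s, Cacna1f and Cacna1i shift with the scaling.

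Genes known or named as partners of these pores were counted by the same test, by which 29.9% of all genes fell and 17.0% rose. After cyclic loess these shares were 17.7% and 9.44%. With dim genes left out, 50.4% of the 12025 genes kept fell and 8.57% rose. Of the auxiliary subunits 12 of 14 read above the olfactory percentile, so their counts cannot be read as particular to them. Of 14 measured genes named as auxiliary subunits 8 fell, 2 rose and 4 did not pass, with a median change of −0.32 (5 fell and 2 rose after cyclic loess). The list takes in the Cacng genes by name, and whether each of them serves these pores was not examined. Cacna2d1, an alpha2delta subunit that carries channels to the membrane, fell by 0.90 (SE 0.11, limma adjusted p = 0.000118), the beta subunit Cacnb1 by 0.59 (SE 0.09) and the alpha2delta subunit Cacna2d2 by 0.54 (SE 0.13). Cacna2d4 and Cacng1, noted after their values were seen, rose by 0.34 and 0.30, and Cacna2d4 read below the olfactory percentile. Of the RGK proteins, small GTPases that bind beta subunits and inhibit channels, 3 were measured, and Rem2 fell by 0.89 (SE 0.11, limma adjusted p = 0.000109), while Gem and Rrad, noted after their values were seen, did not pass (0.05, adjusted p = 0.655, and 0.05, adjusted p = 0.557).

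A further list held channels that release calcium from stores or refill them. Of 10 measured, 2 fell and none rose, beside 29.9% and 17.0% of all genes, and after cyclic loess none passed. Ryr2, the ryanodine receptor of neurons and heart, fell by 0.33 (SE 0.08, adjusted p = 0.00399) and Orai1, a store-operated channel, by 0.19 (SE 0.07, adjusted p = 0.0422). Their median change was −0.04, beside −0.03 for all genes.

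Pumps and exchangers clear the calcium that the channels admit. Of 14 measured, 8 fell and 2 rose, with a median of −0.31, beside 29.9% and 17.0% of all genes. After cyclic loess 6 fell and none rose, beside 17.7% and 9.44%. Of the 14, 12 read above the olfactory percentile, and 50.4% of genes above it fell with dim genes left out. The counts thus cannot be read as particular to this list. The sodium-calcium exchanger Slc8a2 fell by 0.54 (SE 0.12, adjusted p = 0.00253), and the plasma membrane pumps Atp2b3 and Atp2b2 by 0.51 (SE 0.11) and 0.50 (SE 0.09). The 2 that rose, noted after their values were seen, were Atp2a1 (0.20) and Atp2a3 (0.22), both below the olfactory percentile, and neither passed after cyclic loess.

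Of 20 channel partners and modulators, 14 fell and 2 rose, with a median of −0.32, beside 29.9% and 17.0% of all genes. After cyclic loess 8 fell and none rose, beside 17.7% and 9.44%. Of the 20, 18 read above the olfactory percentile, and 50.4% of genes above it fell with dim genes left out. At means from 7 to 8 and from 8 to 9 that share was 60.6% and 66.3% in the main fit. The counts thus cannot be read as particular to this list. Ncs1, a calcium sensor that modulates Cav2 channels, fell by 0.69 (SE 0.11, adjusted p = 0.000545), Stac, an adaptor that binds L-type channels and read below the olfactory percentile, by 0.49 (SE 0.15, adjusted p = 0.0146) and Syt1, the calcium sensor of vesicle release, by 0.46 (SE 0.13, adjusted p = 0.00902). Cabp4 and Cabp2, calcium-binding proteins known from retina and hair cells and noted after their values were seen, rose by 0.30 and 0.26 as deposited.

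**Figure D5:**
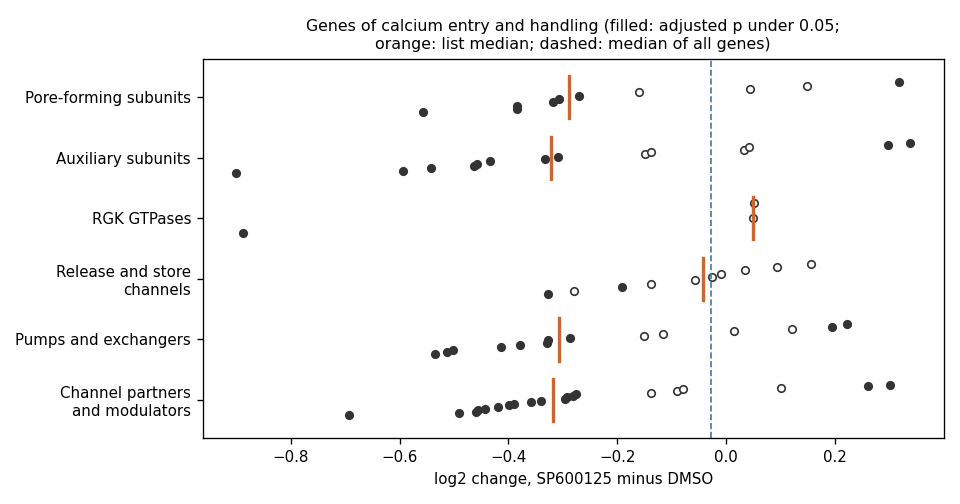
Log2 change (horizontal axis) of each gene in the subunit family and in 5 lists of genes of calcium entry and handling, with list medians in orange and the median of all genes dashed. Filled points passed the test, and the release and store channels have the median closest to that of all genes among the lists with more than 3 genes.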

How the data were processed

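Affymetrix whole-transcript arrays were hybridised with total RNA, per the labels' protocols. The authors deposited a log2 value for each of 35556 probe sets on 10 arrays. The submitters' processing notes name oligo 1.14.0. How background was corrected and arrays normalized is not given in the sources used here, and the log2 scale was read from the values. Symbols came from the platform's annotation, in which 21789 probe sets had 1 symbol, 1621 several and 12146 none. Where a gene had several probe sets, the brightest on average was taken.

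The deposited values were fitted across all 19938 genes by lmFit and eBayes of limma 3.58.1 (R 4.3.3; 7 residual degrees of freedom, two-sided tests) with treatment and drug batch as terms, and with their interaction. A change is the SP600125 mean less the DMSO mean, given with its moderated SE, and p-values were adjusted over all genes. The code of the fit was run on simulated data with independent noise and no batch effect or shift of whole arrays. That run thus says nothing on how such shifts affect the calls. Alternatives were 4 scalings, no batch term, the replicate letter as a block, mean probe sets, a filter on dim genes, a trended variance, each array left out, each batch alone and, added after seeing the data, both b arrays left out. All 10 members are named, and by rule at most 3 genes from each list of calcium genes, those that passed with the greatest change. Further genes of these lists, Map2, and the collagen and pluripotency genes were named after their values were seen, as stated beside them. The members and lists were chosen with earlier results of these data known.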

Additional observations from a re-analysis of the deposited data

Results flagged for a closer look

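In 20 sets of 5 arrays (10 genes in 2 groups), 4 had an array set apart from its group. Its gap to its neighbour took up more of the group's range than Dixon's 95% critical value of 0.71 allows. Independent sets would give about 1 in 20 by chance, but these 20 share the same 10 arrays. The share of such sets over all genes was not computed, so the 4 cannot be read as particular to the members. DMSO replicate b was the lowest of its group for Cacna1a (gap over range 0.711), and SP600125 replicate b the highest for Cacna1i (0.771). DMSO replicate a was the lowest for Cacna1d (0.772), and SP600125 replicate c the highest for Cacna1s (0.717).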

How the results depend on the processing

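Over 22 alternatives, the count of members changed (7) lay from 6 to 8 except after cyclic loess (3) and in drug batch 1 alone (0 by limma, with 1 at an unadjusted p under 0.05). In that batch alone limma called only 1 of all 19938 genes. Leaving out single arrays gave 7 to 8. With the replicate block 7 members changed. Whether the letters pair the samples cannot be settled from these arrays. Same-lettered arrays had correlations of their deviations from the group means from −0.21 to 0.10. For deviations from the means of group and batch they ran from −0.34, shared by a and b, to 0.04. No member's call changed under the block. Signs turned for Cacna1d after array median centring (−0.058), for Cacna1f after quantile normalization (−0.0093) and cyclic loess (−0.0087), and for Cacna1i in drug batch 1 alone (0.037), none of them passing; the cause was not tested. Cacna1f passed without DMSO replicate e (0.18, adjusted p by limma 0.0438) and with arrays centred on the named genes (0.18, adjusted p by limma 0.0329). Array median centring moved the median change of all genes from −0.03 to −0.13 and the members' median from −0.29 to −0.39. The filter on dim genes left 7 members, 6 of which fell, beside 50.4% of the 12025 genes kept. No member differed in response between batches under any of 6 alternatives. The number of arrays, and signal near background for Cacna1f, Cacna1i and Cacna1s, limit the precision.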
